A study of Mus musculus with 12 samples.

Results

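Peroxisomes are small organelles in which fatty acids that mitochondria handle poorly are shortened or modified, and the 36 genes described here encode their oxidation enzymes, carriers, ether lipid enzymes and membrane proteins (23 genes) and the peroxins that build the organelle (13 genes). The genes were chosen by symbol, with earlier results of these data known. All 36 were found among the 55573 genes of the count table and were tested. By role, 14 encode oxidation enzymes, 3 carriers of the membrane or of carnitine, 1 catalase, 3 ether lipid enzymes and 2 other membrane proteins. The peroxins comprised 2 receptors of matrix proteins, 2 docking proteins, 2 ubiquitin ligases, 2 genes of receptor export, 3 of membrane assembly and 2 of division. The comparison of the genotypes asks how the phosphorylation site T166 of PPARγ, the nuclear receptor that drives adipocyte differentiation, bears on gene expression in adipocytes.

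RNA came from the stromal vascular fraction of subcutaneous (inguinal) fat, the non-adipocyte cells of the tissue, which was differentiated into adipocytes in culture and harvested on day 8. The cells were taken from homozygous mice of 3 genotypes. WT carried wild-type PPARγ, TA the change T166A, an alanine that cannot be phosphorylated, and TD the change T166D, an aspartate that mimics the phosphorylated threonine. These were CRISPR-Cas9 knock-in mice on a C57BL/6 background, which carry the change in every tissue, with WT littermates as controls, and the age and sex of the donors of these cells are not given in the sources used here. All cultures received the same induction mix of insulin at 850 nM, IBMX at 0.5 mM, indomethacin at 125 nM, the thyroid hormone T3 at 1 nM, and dexamethasone. Each genotype had 4 libraries, and the labels do not say whether these were separate mice, so p-values measure the spread between these libraries, which may be partly technical. Depth ran from 16553324 to 20324286 counts per library, each WT library being deeper than each TA and TD library, and 18 pairs of libraries of a genotype all differed by more than counting error. Levels are given as CPM, which scales counts to the normalized library size. Together the 36 genes made up 0.438% ± 0.0189 of a WT library, 0.460% ± 0.0390 of a TA library and 0.350% ± 0.0194 of a TD library (SD, n = 4).

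In peroxisomal β-oxidation an acyl-CoA oxidase passes electrons to oxygen and forms hydrogen peroxide, a bifunctional enzyme hydrates and dehydrogenates the product, and a thiolase releases acetyl-CoA. Very long and branched chains depend on this route, α-oxidation prepares branched chains for it, and catalase breaks down the peroxide. Peroxins import finished enzymes from the cytosol: a receptor binds the cargo, docks at the membrane, releases it inside, is ubiquitinated and is pulled out again. Many genes of peroxisomal fatty acid oxidation are textbook targets of PPARs, which bind a direct repeat of AGGTCA with 1 base between the repeats. White and brown adipocytes gain peroxisomes as they differentiate.

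Per kb of exon, a scale that divides CPM by the length of all annotated exons, catalase (Cat) had the highest level of the 36 genes. In WT it stood at 303 ± 20.7 CPM per kb (SD, n = 4), followed by the thiolase and lipid carrier gene Scp2 at 208 ± 11.8 and by Gnpat, which starts ether lipid synthesis, at 106 ± 9.94 CPM per kb. The WT libraries of these 3 genes did not overlap with those of the next gene in the order. Below them the order was less sharp, and in 22 of the 35 neighbouring pairs the WT libraries overlapped. Hsd17b4, the bifunctional enzyme of very long and branched chains, stood at 67.3 ± 8.58 CPM per kb beside the thiolase gene Acaa1a at 65.4 ± 4.94. Peroxins ran from 2.58 CPM per kb (Pex7) to 55.8 CPM per kb (Pex19) in WT. The oxidases Acox2 and Acoxl held the last 2 places in all 3 genotypes, with WT levels of 0.514 ± 0.182 and 0.107 ± 0.0570 CPM per kb. Cat, Scp2 and Gnpat held the first 3 places per kb in every genotype, and on the CPM scale they took 42.6% of the summed level of the 36 genes in WT, 48.2% in TA and 41.2% in TD.

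**Figure D1:**
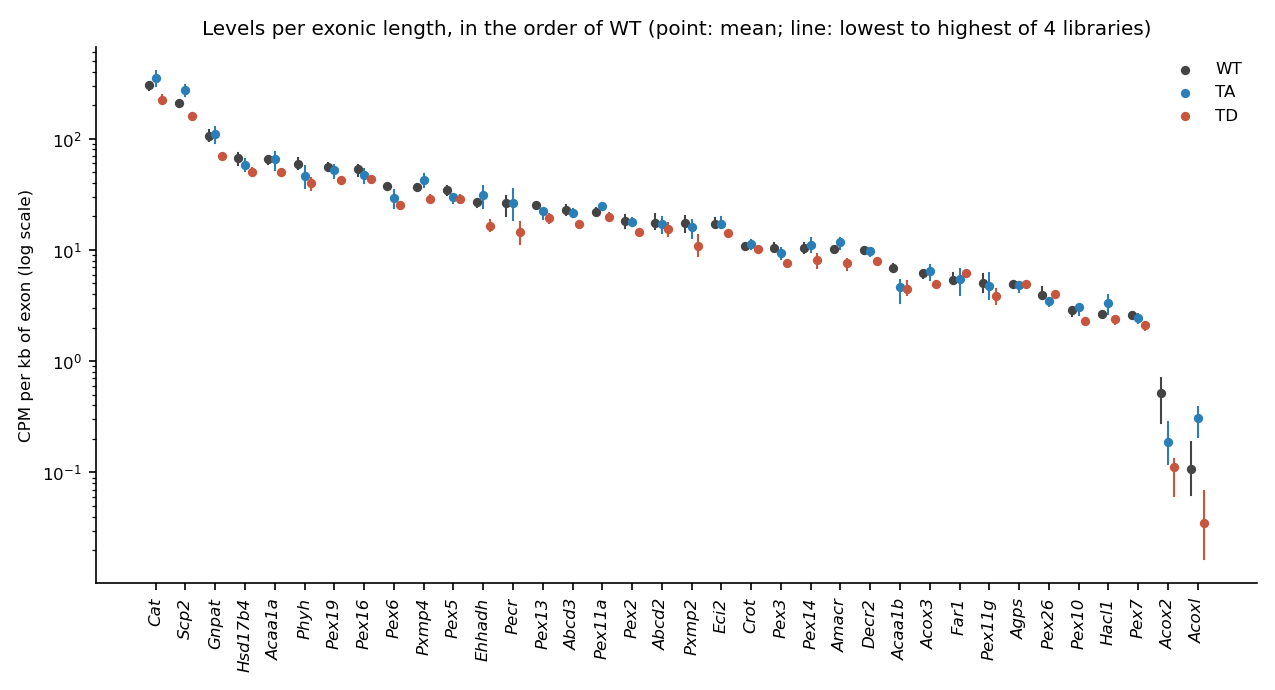
Levels of the 36 genes on a log axis in CPM per kb of exon, ordered by WT, with points for the mean of 4 libraries and lines from the lowest to the highest library of WT (black), TA (blue) and TD (red). Cat leads at 303 CPM per kb in WT, most genes lie between 2.58 and 67.3, and Acox2 and Acoxl lie apart at the low end.

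The promoters were read to show what sequence the leading genes carry at the letters that PPARs bind, AGGTCA followed by any base and AGGTCA again. RefSeq windows on GRCm38.p6, from 250 bases before to 50 bases after each start, were matched for 30 of the 36 genes, and Hsd17b4, Amacr, Abcd2, Pxmp2, Pex2 and Pex19 had no entry. On both strands, the repeat was found with at most 2 mismatches in 2 of the 30 genes (6.67%), Cat and Acox2, against 1190 of 27025 genes (4.40%), and in none of the 30 with at most 1 mismatch, against 174 genes (0.644%). The single element AGGTCA stood in 4 of the 30 genes (13.3%), Phyh, Cat, Scp2 and Pex11g, against 4900 of all genes (18.1%), and the Cat element is part of its longer match. The sequences of Cat and Scp2, the 2 genes with the highest levels per kb, are shown 5′ to 3′ on the strand of the gene with the match in capitals. That of Pex11g, a gene that passed the test in no comparison, is shown for contrast. The Cat match begins 204 bases before the start at chr2:103485325-103485377 (minus strand). The Scp2 element begins 109 bases before a start at chr4:108118631-108118676 (minus strand). This start lies inside the gene, which is annotated over chr4:108043839-108144998. The Pex11g element begins 173 bases before the start at chr8:3467796-3467841 (minus strand).
Cat: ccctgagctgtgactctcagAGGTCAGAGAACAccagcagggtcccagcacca
Scp2: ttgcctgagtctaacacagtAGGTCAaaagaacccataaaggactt
Pex11g: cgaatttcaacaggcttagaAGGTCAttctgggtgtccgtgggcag
These matches are a description of letters and no measurement of binding.

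In TD adipocytes, peroxisomal genes of nearly every role were expressed at lower levels than in WT, and none at a higher level that passed the test. By edgeR's quasi-likelihood test, 26 of the 36 genes had an adjusted p under 0.05 and all 26 were lower, where 14.2% of the 15117 genes tested were called lower and 15.1% higher. The called genes were 17 of the 23 enzymes, carriers and membrane proteins and 9 of the 13 peroxins. Acox2, among the 17, passed the filter on low counts only with its WT libraries, where it is high. The median log2 fold change of the 36 genes was -0.37, that of the 23 was -0.41 and that of the 13 peroxins -0.32, beside 0.011 over all tested genes. In 27 genes the 4 TD libraries lay below the 4 WT libraries without overlap, against 16.4% of all genes, and in no gene did they lie above them, against 15.8%. Of the 26 calls, 19 held in each of the 12 fits that left out a library and in every other setting that tested them. These were 15 enzymes, carriers and membrane proteins and 4 peroxins. Without WT replicate 1 the number called was 19. There the calls of Acaa1a, Eci2, Pex2, Pex5, Pex7, Pex14 and Pex16 were lost, with adjusted p from 0.0517 to 0.115. Eci2, Pex5, Pex7, Pex14 and Pex16 were lost without at least 1 other library too, WT replicate 4 or a TD replicate. With library totals alone in place of TMM factors, 23 genes were called lower, without Eci2, Pex5 and Pex16, and 64.6% of all called genes were higher in TD, in place of 51.5%.

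Against TA, 21 of the 36 genes were lower in TD and none higher, where 9.37% of all tested genes were called lower and 7.33% higher. These were 15 of the 23 enzymes, carriers and membrane proteins and 6 of the 13 peroxins. Acoxl, among the 15, passed the filter on low counts only with its TA libraries, where it is high. The median log2 fold changes of the 23 and the 13 were -0.38 and -0.29, beside 0.023 over all genes. The TD libraries lay below the TA libraries without overlap in 18 genes, against 10.6% of all genes, and above them in 1, the export gene Pex26, against 9.32%. TA and WT differed in 5 genes, of which 3 were lower in TA (4.41% of all genes) and 2 higher (6.72%), and the median of the 36 was -0.018. The 3 comparisons share libraries and are given side by side. In TD against TA 13 of the 21 calls held in every fit (11 enzymes, carriers and membrane proteins and 2 peroxins). Those of Pex2 and Pex10 were each lost in 6 of the 12 fits without a library, and those of Eci2 and Decr2 in 5. The number called fell to 13 without TA replicate 2 and without TD replicate 4. There Acaa1a, Eci2, Decr2, Pxmp2, Pex2, Pex3, Pex10 and Pex19 were lost (adjusted p = 0.0571 to 0.119). The number was 15 with library totals alone, where Eci2, Decr2, Pex2, Pex3, Pex10 and Pex19 were lost. In that setting 64.7% of all called genes were higher in TD, in place of 43.9%.

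**Figure D2:**
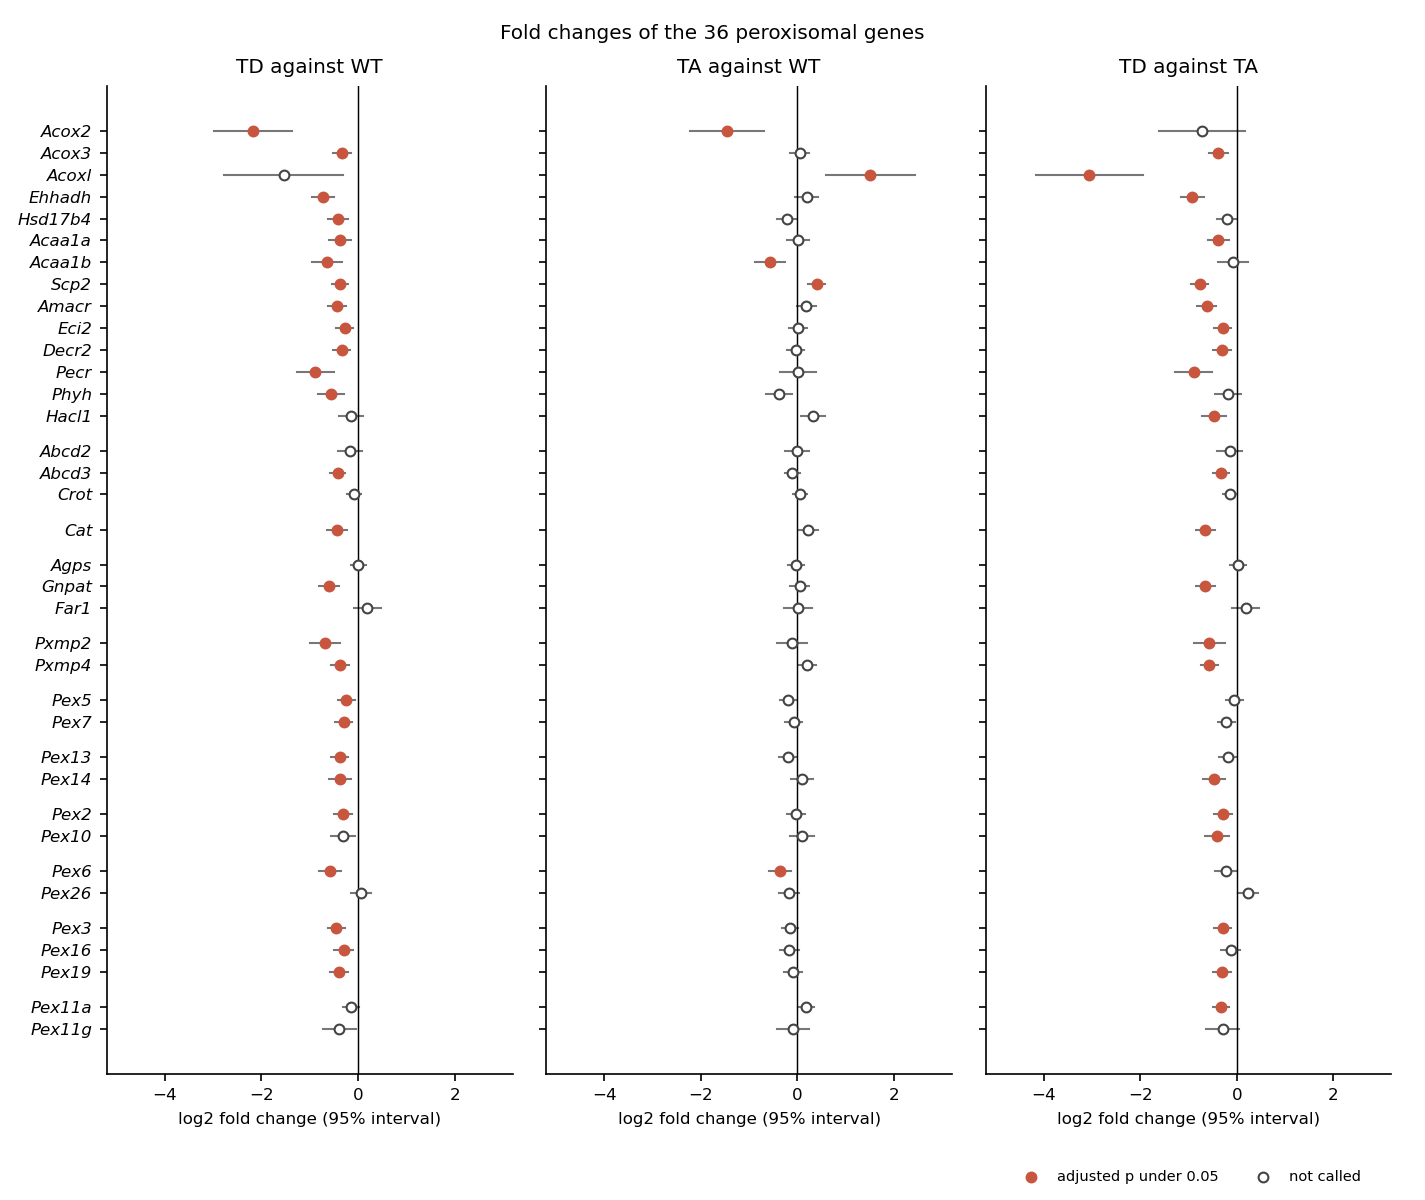
log2 fold changes of the 36 genes with 95% intervals in TD against WT, TA against WT and TD against TA, grouped by role from the oxidases at the top to the division peroxins at the bottom. Filled red points passed the adjusted p of 0.05: 26 in TD against WT and 21 in TD against TA, all to the left of 0, and 5 in TA against WT on both sides of 0.

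Markers of the cells in these cultures moved with the genotypes too. For scale, calls over all tested genes were 14.2% lower and 15.1% higher when TD was compared with WT. TA had 4.41% of genes called below WT and 6.72% above it. Relative to TA, TD had 9.37% of genes called lower and 7.33% higher. Of 14 adipocyte markers, all detected, 12 were lower in TD than in WT and none higher (median log2 fold change -0.46), and their summed level ran from 26412 to 29747 CPM in WT, 24345 to 32368 CPM in TA and 18351 to 20956 CPM in TD. Against TA 10 of them were lower in TD and 1 higher, and TA against WT had 1 lower and 2 higher. Of 12 fibroblast and preadipocyte markers 11 were tested and 9 were higher in TD than in WT (median 0.92), while Dlk1 was at 0 in 11 of the 12 libraries. Their sum was 13195 to 17651 CPM in WT, 15319 to 26967 CPM in TA and 23222 to 34877 CPM in TD, with 7 markers called higher in TA than in WT and 3 in TD than in TA. All 12 skeletal muscle markers were higher in TD than in WT, 6 in TA than in WT and 5 in TD than in TA, with sums of 7.28 to 15.7 CPM in WT, 29.8 to 100.2 CPM in TA and 26.8 to 359.7 CPM in TD. Of 8 endothelial markers 7 were higher in TD than in WT, 4 in TA than in WT and 4 in TD than in TA (sums of 29.7 to 61.8 CPM in WT, 53.6 to 96.7 CPM in TA and 113 to 139 CPM in TD), and of 12 macrophage markers 1, C1qa, was higher in TD than in WT, none passed in TA against WT and 3 were higher in TD than in TA (sums of 295 to 880 CPM in WT, 147 to 641 CPM in TA and 679 to 938 CPM in TD). In bulk RNA, fewer adipocytes and less RNA of these genes per adipocyte cannot be told apart, and the part of these cells in the results on peroxisomal genes was not tested.

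Of the 8 genes of the β-oxidation spiral (oxidases, bifunctional enzymes and thiolases) 7 were lower in TD than in WT. Of all genes 14.2% were called lower. Acox2, among the 7, had low counts and passed the filter on them only with its WT libraries, where it is high. The other gene, Acoxl, had very low counts. Ehhadh, the bifunctional enzyme of straight chains, measured 84.4, 81.3, 72.5 and 84.7 CPM in WT and 92.2, 111, 70.5 and 95.5 CPM in TA. Its TD libraries gave 55.2, 48.2, 47.5 and 44.4 CPM. No TD library reached any WT or TA library. Its log2 fold change was -0.72 ± 0.11 (adjusted p = 0.000301) in TD against WT, a mean 39.5% lower, and -0.92 ± 0.11 (adjusted p = 6.43e-05) in TD against TA (± SE). Hsd17b4 ranged over 199 to 256 CPM in WT, 176 to 221 CPM in TA and 157 to 186 CPM in TD, and passed the test only in TD against WT, at -0.41 ± 0.098 (adjusted p = 0.00541). In TD against TA its value was -0.20 ± 0.098 (adjusted p = 0.184), with a 95% interval of -0.40 to 0.011. Scp2, which encodes sterol carrier protein 2 and the thiolase of branched chains, measured 749.8, 669, 712 and 760.4 CPM in WT and 995, 1054, 849 and 914 CPM in TA. TD values were 590.1, 582, 526 and 537 CPM. The 3 genotypes did not overlap: TA was highest, WT intermediate and TD lowest. Counts were per gene, so RNA for the thiolase and RNA for the carrier protein alone were not told apart. Scp2 was the only one of the 36 genes to pass the test in all 3 comparisons, at -0.37 ± 0.083 (adjusted p = 0.00334) in TD against WT, 0.40 ± 0.083 (adjusted p = 0.00486) in TA against WT and -0.77 ± 0.083 (adjusted p = 1.82e-05) in TD against TA.

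The paralogous thiolases Acaa1a and Acaa1b were both lower in TD than in WT, as were 14.2% of all genes tested. Acaa1a measured 309, 287, 259 and 299.7 CPM in WT and 265, 334, 229 and 334 CPM in TA. The TD libraries held 224, 229.6, 228 and 211 CPM. TD lay below WT and overlapped with TA through the low TA replicate 3, and the log2 fold changes were -0.37 ± 0.11 (adjusted p = 0.0145) against WT and -0.38 ± 0.11 (adjusted p = 0.0214) against TA. Acaa1b, which stood at 6.91 CPM per kb in WT, measured 12.7, 14.7, 13.97 and 12.8 CPM in WT and 9.24, 10.5, 6.51 and 10.3 CPM in TA. In TD it reached 8.35, 10.3, 8.30 and 7.68 CPM. Here TA and TD overlapped and both lay below WT, with -0.57 ± 0.15 (adjusted p = 0.0183) in TA and -0.64 ± 0.15 (adjusted p = 0.00377) in TD, and the difference of TD from TA was -0.076, with a 95% interval of -0.39 to 0.24. The paralogs are close in sequence and near each other on chromosome 9, at chr9:119339676-119350299 and chr9:119148023-119157093, so counts may be shared between them, and exons of Acaa1a overlap Myd88 on the opposite strand, with the strand setting of the counting not stated.

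Of the acyl-CoA oxidases, which take the first step, Acox3 acts on branched chains and measured 73.4, 73.4, 64.4 and 74.5 CPM in WT and 68.1, 85.0, 62.3 and 79.9 CPM in TA. Its TD libraries gave 55.1, 55.9, 60.2 and 55.5 CPM. All TD libraries lay below all WT and TA libraries, at -0.33 ± 0.091 (adjusted p = 0.0115) against WT and -0.38 ± 0.091 (adjusted p = 0.00976) against TA. Acox2, the oxidase of branched chains and bile acid intermediates, was scarce, with 21 to 50 counts per library in WT, 8 to 19 in TA and 4 to 9 in TD. In CPM these were 2.59, 1.74, 1.04 and 2.25 CPM in WT and 0.585, 0.676, 1.06 and 0.445 CPM in TA. TD values were 0.227, 0.485, 0.479 and 0.469 CPM. It passed the filter on low counts only with its WT libraries, where it is high, and was not tested when TD and TA were fitted alone. Its log2 fold change in TD against WT was -2.17 ± 0.38 (adjusted p = 0.000704), and it was lower in TA too, at -1.45 ± 0.36 (adjusted p = 0.0158), although 1 TA library lay above the lowest WT library. The call in TA was lost without WT replicate 1 (adjusted p = 0.0606) or without TA replicate 1 (adjusted p = 0.0502). TD against TA gave -0.72, with a 95% interval of -1.61 to 0.17. Acoxl, an oxidase-like gene, had 26 counts in the 4 WT libraries together, 67 in TA and 8 in TD, with levels of 0.311, 0.248, 0.198 and 0.603 CPM in WT and 1.23, 1.17, 0.835 and 0.667 CPM in TA. The TD libraries held 0.0568, 0.216, 0.0532 and 0.117 CPM. TA lay above WT and TD without overlap. It passed the filter only with its TA libraries, where it is high, and was not tested when WT and TD were fitted alone. Its log2 fold change was 1.51 ± 0.43 (adjusted p = 0.0329) in TA against WT and -3.05 ± 0.52 (adjusted p = 0.00102) in TD against TA. TD against WT did not pass the test, at -1.54 ± 0.59 (adjusted p = 0.058), but did without WT replicate 3 (-1.73, adjusted p = 0.0455) or without TD replicate 2 (-2.07, adjusted p = 0.0361). The rise in TA was lost in 5 of the fits without a library (WT replicates 1, 2 and 3, TA replicates 1 and 2; adjusted p = 0.0674 to 0.0988) and without a filter on low counts (adjusted p = 0.0817). With at least 10 counts asked of every library, which leaves Acox2 and Acoxl untested, 25 of 34 members were lower in TD than in WT and 20 in TD than in TA.

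The auxiliary enzymes Pecr, Amacr, Eci2 and Decr2 were lower in TD than in WT and in TA, as were 6.15% of all genes tested. Pecr, the enoyl-CoA reductase of peroxisomal chain elongation, measured 46.4, 39.0, 30.4 and 45.2 CPM in WT and 37.6, 53.5, 27.9 and 42.7 CPM in TA. In TD it reached 26.8, 23.7, 19.6 and 17.2 CPM. TD lay below WT and TA in every library, with a mean 45.9% below that of WT, and the log2 fold changes were -0.88 ± 0.18 (adjusted p = 0.00189) against WT and -0.89 ± 0.18 (adjusted p = 0.00357) against TA. Amacr, the racemase that turns methyl-branched acyl-CoAs into the form the oxidases accept, measured 27.1, 27.8, 27.0 and 25.3 CPM in WT and 30.3, 33.3, 26.8 and 31.6 CPM in TA. Its TD libraries gave 21.1, 19.1, 17.4 and 21.8 CPM. It was lower in TD without overlap, at -0.44 ± 0.093 (adjusted p = 0.0025) against WT and -0.62 ± 0.093 (adjusted p = 0.000342) against TA. Eci2, an isomerase of double bonds, measured 106, 88.3, 92.1 and 91.9 CPM in WT and 89.6, 110.1, 87.4 and 95.2 CPM in TA. TD values were 84.0, 79.3, 76.3 and 73.0 CPM. Decr2, the dienoyl-CoA reductase, measured 27.8, 26.2, 27.5 and 24.2 CPM in WT and 26.5, 25.8, 23.3 and 27.7 CPM in TA. The TD libraries held 22.3, 21.2, 20.1 and 19.9 CPM. Both were lower in all TD libraries than in all others, with -0.28 ± 0.084 (adjusted p = 0.0211) for Eci2 and -0.34 ± 0.084 (adjusted p = 0.00668) for Decr2 against WT, and -0.29 ± 0.084 (adjusted p = 0.0271) and -0.31 ± 0.084 (adjusted p = 0.0206) against TA.

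The pair of α-oxidation genes passed the test in different comparisons, and the difference between them was not tested. Phyh, which hydroxylates phytanoyl-CoA, ran over 102 to 128 CPM in WT, 68.5 to 107 CPM in TA and 65.0 to 84.2 CPM in TD, and was lower in TD than in WT at -0.56 ± 0.13 (adjusted p = 0.00335). Its value in TA against WT was -0.38 ± 0.13 (adjusted p = 0.0646), which passed the test with DESeq2 (adjusted p = 0.0374), with library totals alone (adjusted p = 0.0497) and without a filter on low counts (adjusted p = 0.000317). Hacl1, the lyase that acts after it, ran over 12.7 to 13.8 CPM in WT, 13.2 to 19.3 CPM in TA and 10.7 to 12.7 CPM in TD, and passed the test in TD against TA alone, at -0.47 ± 0.12 (adjusted p = 0.0116). Its counts are uncertain. Of its exonic length, 1540 bases (31.1%) overlap Gm49387 on the same strand, a gene with a mean count of 0. Another 108 bases (2.18%) overlap Btd on the opposite strand, and Btd had the higher mean count (566.5 against 250.1).

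Catalase, which removes the hydrogen peroxide of the oxidases, was lower in TD too. Cat measured 784, 722, 812 and 851 CPM in WT and 920.1, 1052, 778 and 944 CPM in TA. In TD it reached 639, 595, 578 and 533 CPM. No TD library came up to the other 8, and TA and WT overlapped. The log2 fold changes were -0.43 ± 0.094 (adjusted p = 0.00272) in TD against WT and -0.66 ± 0.094 (adjusted p = 0.000252) in TD against TA, and TA against WT gave 0.22 ± 0.093 (adjusted p = 0.146).

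Of the 3 carriers 1 passed the test, lower in TD than in WT and in TA, as were 6.15% of all genes tested. Abcd3, an ABC transporter that brings acyl-CoAs into the organelle, measured 161, 135, 147 and 165 CPM in WT and 142, 154, 139 and 131 CPM in TA. Its TD libraries gave 113, 109, 121 and 110.4 CPM. TD was below both other genotypes without overlap, at -0.42 ± 0.077 (adjusted p = 0.000811) against WT and -0.32 ± 0.077 (adjusted p = 0.00976) against TA. Abcd2, a transporter of very long and polyunsaturated chains, overlapped among genotypes (91.6 to 124 CPM in WT, 83.7 to 118 CPM in TA and 79.6 to 104 CPM in TD), with -0.16 in TD against WT and a 95% interval of -0.41 to 0.089. Crot, which hands shortened chains to carnitine for export, had -0.089 and an interval of -0.24 to 0.059, from levels of 56.0 to 63.2 CPM in WT, 55.4 to 66.5 CPM in TA and 54.2 to 56.3 CPM in TD. The interval of Crot does not reach the fold change of Abcd3.

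In TD 6.15% of all genes tested were called lower than in WT and in TA. Among the 3 ether lipid enzymes only Gnpat passed a test. It catalyses the acylation that opens plasmalogen synthesis, and measured 380.4, 366, 342 and 426 CPM in WT and 373, 460.0, 331 and 402 CPM in TA. TD values were 262, 255, 243 and 239 CPM. The 4 TD libraries lay below all others, with a mean 34.0% below WT, at -0.60 ± 0.095 (adjusted p = 0.000358) against WT and -0.65 ± 0.096 (adjusted p = 0.000308) against TA. Agps, the synthase of the next step, had 44.1 to 48.3 CPM in WT, 39.2 to 48.2 CPM in TA and 43.4 to 48.3 CPM in TD, a fold change of 0.01 in TD against WT and a 95% interval of -0.15 to 0.17, which does not reach the fold change of Gnpat. Far1, which supplies the fatty alcohol, measured 40.0, 40.6, 43.5 and 49.5 CPM in WT and 51.6, 37.3, 54.2 and 31.8 CPM in TA. The TD libraries held 52.1, 48.6, 47.8 and 50.1 CPM. Its TD value was the highest of the 36 genes against WT, 0.19 ± 0.13 (adjusted p = 0.295), and did not pass the test.

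Both other membrane proteins were lower in TD than in WT and in TA, as were 6.15% of all genes tested. Pxmp2, a channel for small solutes, measured 21.7, 24.0, 17.2 and 20.1 CPM in WT and 19.6, 22.3, 15.3 and 19.8 CPM in TA. In TD it reached 16.2, 14.1, 10.5 and 10.8 CPM. Pxmp4, a membrane protein of the organelle, measured 119.7, 113, 112 and 118 CPM in WT and 141, 151, 114 and 124 CPM in TA. Its TD libraries gave 96.2, 89.8, 83.1 and 87.6 CPM. Pxmp4 was lower in every TD library than in any other, while for Pxmp2 TD replicate 1 lay above TA replicate 3. Against WT the values were -0.68 ± 0.15 (adjusted p = 0.00326) and -0.37 ± 0.084 (adjusted p = 0.00352), and against TA -0.57 ± 0.15 (adjusted p = 0.0173) and -0.57 ± 0.084 (adjusted p = 0.000289).

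**Figure D3:**
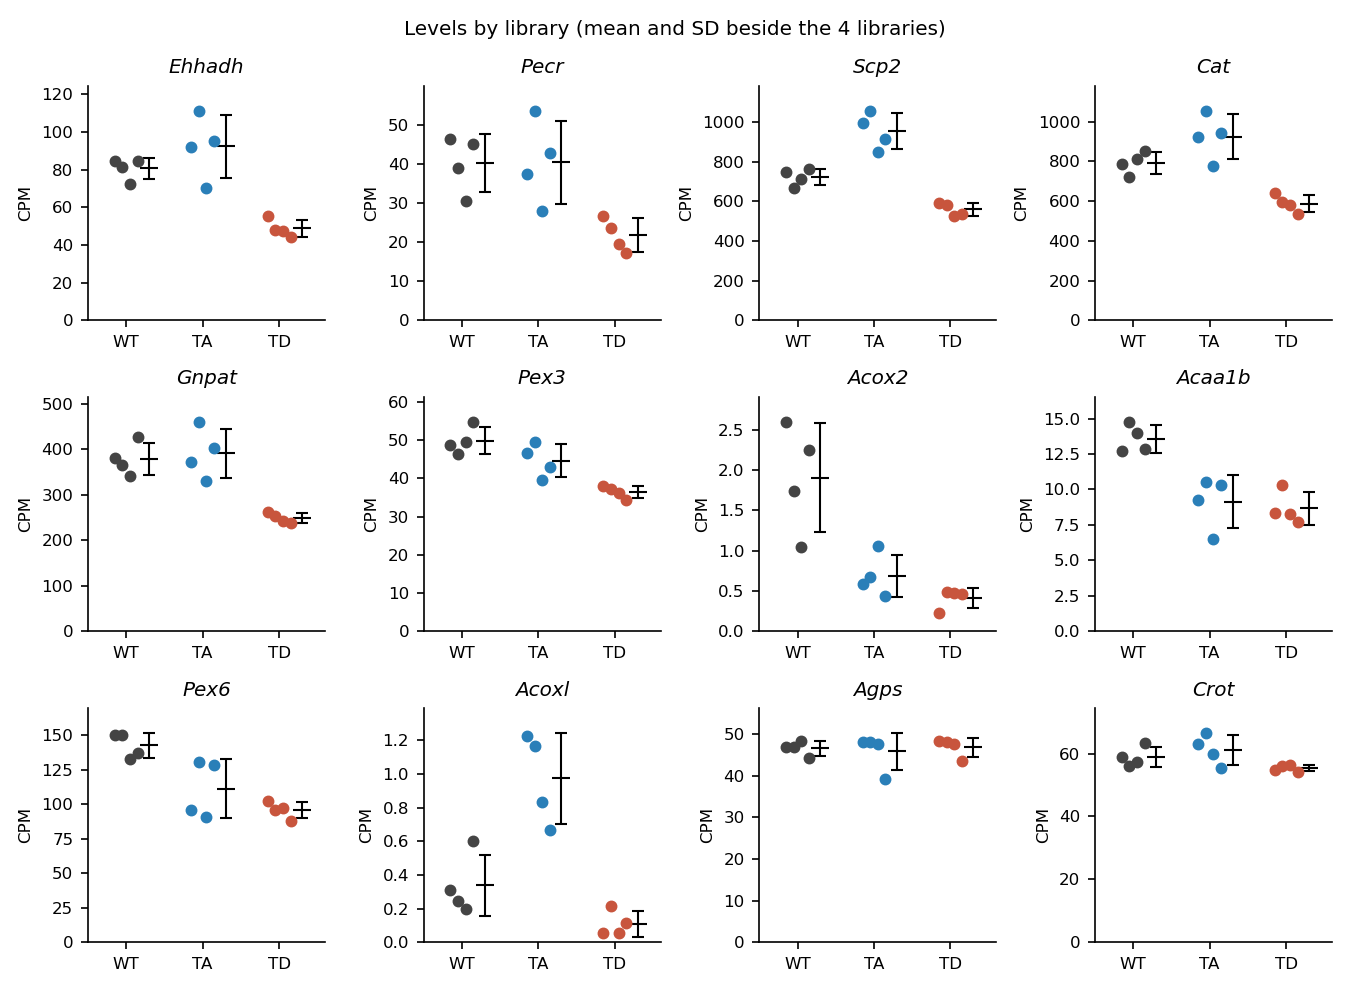
Levels in CPM of 12 of the genes in each library (points, with the mean and SD of 4 libraries beside them) of WT, TA and TD, on axes that start at 0. Ehhadh, Pecr, Scp2, Cat, Gnpat and Pex3 are lower in every TD library than in any WT or TA library, Acox2, Acaa1b and Pex6 are lower in TA as well, Acoxl is highest in TA, and Agps and Crot overlap among the genotypes.

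Peroxins of cargo binding, docking and membrane assembly were called lower in TD against WT, and so were the ligase Pex2 and the export ATPase Pex6. Of all genes 14.2% were called lower there. Among these peroxins, only the calls of Pex3, Pex6, Pex13 and Pex19 held in every fit. The receptors Pex5 and Pex7, which bind the 2 kinds of targeting signal of matrix enzymes, ran over 124 to 147 CPM in WT, 104 to 126 CPM in TA and 109.9 to 122 CPM in TD for Pex5 and over 29.6 to 33.4 CPM in WT, 26.6 to 32.4 CPM in TA and 23.3 to 26.9 CPM in TD for Pex7. Against WT both fell in TD, at -0.25 ± 0.083 (adjusted p = 0.0344) and -0.30 ± 0.084 (adjusted p = 0.0141), and neither passed the test in TD against TA. The calls against WT were lost in 5 (Pex5) and 2 (Pex7) of the 12 fits without a library. Of the docking proteins, Pex14 measured 72.3, 59.7, 58.7 and 71.1 CPM in WT and 64.9, 80.0, 60.1 and 74.3 CPM in TA. TD values were 42.7, 53.3, 57.7 and 48.2 CPM. All TD libraries lay below all others, at -0.37 ± 0.11 (adjusted p = 0.0168) against WT and -0.47 ± 0.11 (adjusted p = 0.0086) against TA. Pex13 had 114 to 123 CPM in WT, 87.2 to 109 CPM in TA and 80.6 to 97.9 CPM in TD, so that TA lay below WT without overlap as TD did, with -0.38 ± 0.082 (adjusted p = 0.0027) in TD and -0.20 ± 0.082 (adjusted p = 0.14) in TA.

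The membrane ubiquitin ligases Pex2 and Pex10 mark the receptors for recycling. Pex2 measured 46.4, 37.8, 36.1 and 45.5 CPM in WT and 40.7, 44.1, 40.7 and 37.3 CPM in TA. The TD libraries held 32.1, 34.0, 33.6 and 33.2 CPM. It was lower in every TD library, at -0.32 ± 0.088 (adjusted p = 0.0128) against WT and -0.29 ± 0.089 (adjusted p = 0.0328) against TA. Pex10 did not overlap either (8.42 to 10.2 CPM in WT, 8.63 to 10.8 CPM in TA and 7.21 to 7.98 CPM in TD), and passed the test against TA, at -0.41 ± 0.12 (adjusted p = 0.0258), but not against WT, at -0.32 ± 0.12 (adjusted p = 0.0527). With RLE factors its adjusted p against WT was 0.0476, and with DESeq2 it was 0.0489. Against TA its call was lost in 6 of the 12 fits without a library. It was also lost there with library totals alone (adjusted p = 0.0538) and without a filter on low counts (adjusted p = 0.0992).

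Of the 2 genes of receptor export 1 was lower than WT in both mutants. Of all genes tested, 14.2% were called lower than WT in TD and 4.41% in TA. Pex6, an ATPase that pulls the receptor back to the cytosol, measured 151, 150.1, 133 and 137 CPM in WT and 95.6, 131, 90.5 and 128 CPM in TA. In TD it reached 102, 96.0, 97.5 and 87.8 CPM. Both mutants lay below WT without overlap, with -0.57 ± 0.11 (adjusted p = 0.00107) in TD and -0.36 ± 0.11 (adjusted p = 0.0407) in TA. The call in TA was lost in 7 of the 12 fits without a library (WT replicates 1, 2 and 4, TA replicates 1 and 3, TD replicates 2 and 3; adjusted p = 0.0553 to 0.125) and in the fit of WT and TA alone (adjusted p = 0.0821). Pex26, which anchors that ATPase complex at the membrane, measured 20.3, 26.3, 20.5 and 21.2 CPM in WT and 17.7, 20.4, 20.8 and 19.5 CPM in TA. Its TD libraries gave 23.7, 22.9, 24.1 and 21.1 CPM. It had the highest value of the 36 genes in TD against TA, 0.23 ± 0.099 (adjusted p = 0.129), and no comparison passed the test.

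Pex3, Pex16 and Pex19 place membrane proteins into the organelle, and all fell in TD against WT, where 14.2% of all genes were called lower. Pex3 measured 48.7, 46.3, 49.7 and 54.7 CPM in WT and 46.7, 49.6, 39.5 and 43.0 CPM in TA. TD values were 38.0, 37.3, 36.3 and 34.4 CPM. The TD libraries stayed below the other 8, and the values were -0.45 ± 0.081 (adjusted p = 0.000803) against WT and -0.29 ± 0.082 (adjusted p = 0.0223) against TA. Pex19, the chaperone that carries them, measured 225, 202, 194 and 230.3 CPM in WT and 209, 222, 168 and 199 CPM in TA. The TD libraries held 170.3, 164, 152 and 157 CPM. TD overlapped with TA through TA replicate 3 alone, at -0.40 ± 0.087 (adjusted p = 0.00285) against WT and -0.31 ± 0.088 (adjusted p = 0.0236) against TA. Pex16 ran over 82.0 to 102 CPM in WT, 71.0 to 94.1 CPM in TA and 73.2 to 80.4 CPM in TD, with -0.30 ± 0.092 (adjusted p = 0.0222) against WT and -0.13 ± 0.092 (adjusted p = 0.365) against TA. Of the division genes, Pex11a, a factor of peroxisome proliferation, ran over 65.5 to 75.3 CPM in WT, 74.6 to 84.2 CPM in TA and 58.0 to 68.1 CPM in TD, and passed the test in TD against TA alone, at -0.32 ± 0.077 (adjusted p = 0.0104). Pex11g had 14.2 to 20.6 CPM in WT, 12.3 to 21.1 CPM in TA and 11.0 to 14.98 CPM in TD and -0.38 ± 0.16 (adjusted p = 0.0797) in TD against WT. It passed there without a filter on low counts (adjusted p = 0.0202) and in the fit of WT and TD alone (adjusted p = 0.0413).

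The group of enzymes, carriers and membrane proteins and that of peroxins had medians of the same sign in TD. The difference between the 2 groups was not tested. By the median over each group of log2 CPM minus the gene's mean over 12 libraries, enzymes, carriers and membrane proteins stood at 0.013 to 0.20 in the WT libraries, -0.0098 to 0.34 in TA and -0.33 to -0.23 in TD. The peroxins stood at -0.048 to 0.24 in WT, -0.099 to 0.19 in TA and -0.29 to -0.15 in TD. In both groups each TD library was below each other library. Of the summed CPM of the 36 genes, peroxins took 22.7% in WT, 19.7% in TA and 23.4% in TD. Among the enzymes, carriers and membrane proteins, spread was widest in TA, where replicate 2 stood highest of the 12 libraries (0.34). TA replicate 3 was lowest of the 8 WT and TA libraries for both groups (-0.0098 and -0.099). The adipocyte markers had the same ends among TA libraries (0.37 in replicate 2 and -0.099 in replicate 3), and the fibroblast and preadipocyte markers the opposite ends (-0.31 and 0.38). The part of this in the spread was not tested.

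**Figure D4:**
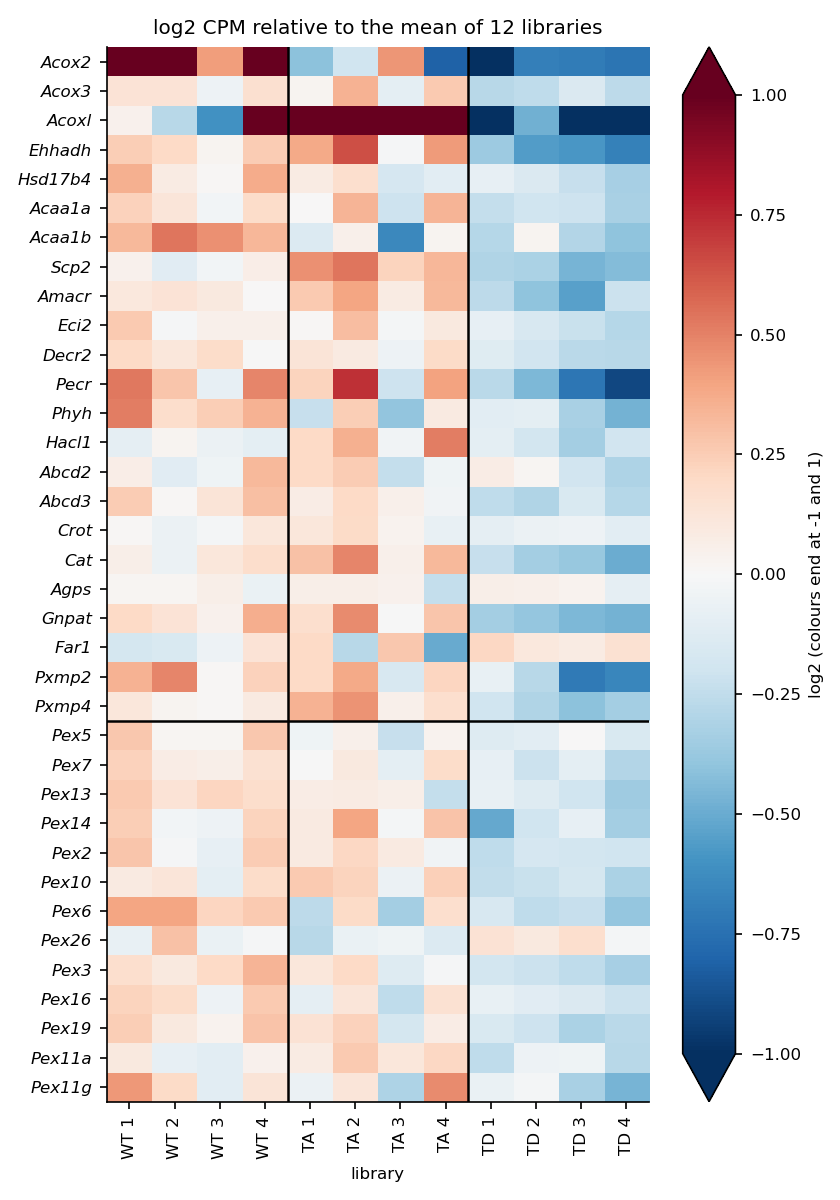
log2 CPM of each of the 36 genes relative to its mean over the 12 libraries, with enzymes, carriers and membrane proteins above the line and peroxins below it, and colours that end at -1 and 1. The 4 TD columns are blue in most rows, with Agps, Far1 and Pex26 among the exceptions, and TA replicate 3 is the palest or bluest TA column in many rows.

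In 15 of the 36 genes the 4 TD libraries stayed below the other 8, as in 6.36% of all genes tested. These were the enzyme, carrier and membrane genes Acox3, Ehhadh, Scp2, Amacr, Eci2, Decr2, Pecr, Abcd3, Cat, Gnpat and Pxmp4 and the peroxins Pex2, Pex3, Pex10 and Pex14.

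In TA against WT Scp2 and Acoxl were higher and Acox2, Acaa1b and Pex6 lower, which is 5.56% and 8.33% of the 36 genes beside 6.72% and 4.41% of all genes tested. Only the calls of Scp2 and Acaa1b held in every fit. Acox2 and Acoxl passed the filter on low counts only with the genotype where each is high, WT and TA. In 3 genes TA lay below WT without overlap (Acaa1b, Pex6 and Pex13), against 5.85% of all genes, and in 2 above it (Scp2 and Acoxl), against 7.71%. The median log2 fold change was 0.012 for the 23 enzymes, carriers and membrane proteins and -0.093 for the 13 peroxins, beside -0.0056 over all genes. The number of calls ran from 2, without WT replicate 1 or without TA replicate 1, to 8 without TA replicate 3 (6 higher and 2 lower, with Ehhadh, Hacl1, Cat and Pxmp4 passing as higher).

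Other proteins of the organelle were lower in TD as well. Of 34 further peroxisomal genes, 28 were tested. Against WT 19 were lower in TD and none higher (median log2 fold change -0.38), where 14.2% of all genes were called lower and 15.1% higher. Against TA 15 were lower and none higher (median -0.38), beside 9.37% and 7.33% of all genes. In TA against WT 3 were lower and 3 higher (median -0.027), beside 4.41% and 6.72%. The largest fall against WT was that of Ddo, the D-aspartate oxidase, with 9.43 ± 1.57 CPM in WT, 8.60 ± 1.14 in TA and 3.54 ± 0.792 in TD (SD, n = 4) and -1.41 ± 0.18 (adjusted p = 9.24e-05). Ephx2, an epoxide hydrolase found in cytosol and peroxisomes, had the largest fall against TA, -1.36 ± 0.10 (adjusted p = 6.77e-07), with 176 ± 15.5 CPM in WT, 334 ± 47.1 in TA and 130.0 ± 13.1 in TD. Far2, a fatty acyl-CoA reductase, rose most in TA, at 1.53 ± 0.22 (adjusted p = 0.000309), and the thioesterase gene Acot4 fell most there, at -0.59 ± 0.18 (adjusted p = 0.0418).

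Mitochondrial fatty acid oxidation, the route of shorter and common chains, fell in TD too. Of its 18 genes 17 were lower in TD than in WT and 1 higher (median -0.60), beside 14.2% and 15.1% of all genes. Against TA 17 were lower in TD and none higher (median -0.48), beside 9.37% and 7.33%. In TA against WT 1 was lower and 1 higher (median -0.022), beside 4.41% and 6.72%. Cpt1b, a carnitine palmitoyltransferase of the outer membrane, had the largest fall in TD against WT, -0.91 ± 0.28 (adjusted p = 0.0226), and against TA, -1.60 ± 0.28 (adjusted p = 0.00112). Its counterpart Cpt1a was higher in TD than in WT, with 16.7 ± 1.60 CPM in WT, 18.9 ± 5.77 in TA and 25.4 ± 5.22 in TD and 0.61 ± 0.18 (adjusted p = 0.0191). In TA against WT Acadvl fell at -0.29 ± 0.089 (adjusted p = 0.0438) and Acaa2 rose at 0.32 ± 0.087 (adjusted p = 0.0246). The medians of the mitochondrial, peroxisomal and adipocyte lists lie side by side here, and differences between lists were not tested.

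**Figure D5:**
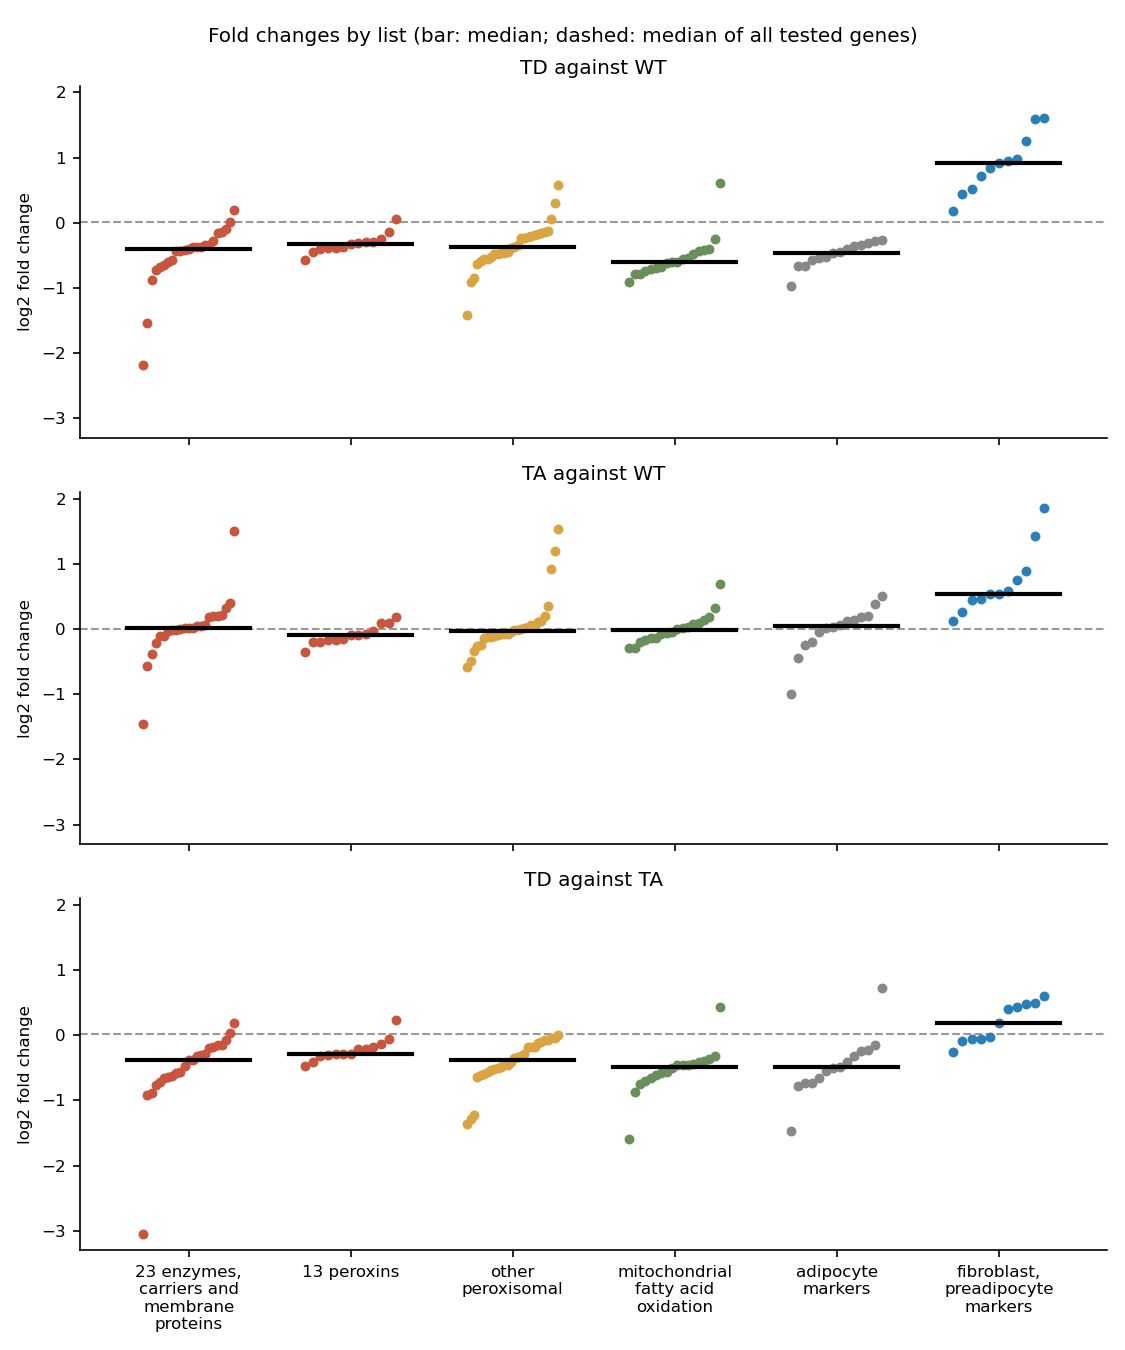
log2 fold changes of single genes (points) in 6 lists for the 3 comparisons, with bars at the median of a list and a dashed line at the median of all genes tested. In TD against WT the medians are -0.41 for the enzymes, carriers and membrane proteins, -0.32 for the peroxins and -0.38 for other peroxisomal genes. They are -0.60 for mitochondrial oxidation, -0.46 for adipocyte markers and 0.92 for fibroblast and preadipocyte markers.

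The receptors themselves and a fat cell hormone serve as reference levels. Pparg had 354 ± 19.9 CPM in WT, 374 ± 46.1 in TA and 237 ± 24.2 in TD (SD, n = 4), with -0.58 ± 0.095 (adjusted p = 0.000429) in TD against WT and -0.66 ± 0.095 (adjusted p = 0.000269) against TA. Ppara, the related receptor of oxidative tissues, had 10.1 ± 1.99 CPM in WT, 10.5 ± 2.15 in TA and 6.21 ± 0.901 in TD, and fell in TD, at -0.71 ± 0.18 (adjusted p = 0.00678). Adipoq, which encodes adiponectin, had 729 ± 71.1 CPM in WT, 803 ± 65.9 in TA and 600.4 ± 40.0 in TD and -0.28 ± 0.088 (adjusted p = 0.0254) in TD against WT. TA against WT gave 0.078 ± 0.094 (adjusted p = 0.67) for Pparg, 0.041 ± 0.17 (adjusted p = 0.918) for Ppara and 0.14 ± 0.088 (adjusted p = 0.357) for Adipoq. In TD against WT the lipid droplet gene Cidec had the largest fall of the adipocyte markers, -0.97 ± 0.14 (adjusted p = 0.000233). Cd34 had the largest rise of the fibroblast and preadipocyte markers, 1.61 ± 0.25 (adjusted p = 0.000271), and Myh3 that of the muscle markers, 6.32 ± 0.97 (adjusted p = 0.000271). The value of Myh3 is taken over a low WT level. All 12 muscle markers together summed to 7.28 to 15.7 CPM in WT, and to an uneven 26.8 to 359.7 CPM in TD.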

How the data were processed

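RNA-seq counts of 12 libraries of cultured adipocytes, 4 each of WT, TA and TD, were analysed, with genotype and replicate taken from the sample labels. The authors deposited raw read counts per gene, without normalization, for 55573 genes. According to the submitters' processing notes, bcl2fastq 2.17.1.14, cutadapt 1.9.1, HISAT2 2.0.1 and HTSeq 0.6.1 were used with the mouse genome GRCm38, and the strand setting is not given in the sources used here. The 12 single-library tables equal the series table.

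Genes were kept by edgeR's filterByExpr (minimum count 10, minimum total 15), which left 15117. Counts were scaled by TMM (factors 0.957 to 1.04) and fitted with 1 quasi-likelihood model over the 12 libraries in edgeR 4.0.16 (R 4.3.3, limma 3.58.1). Two-sided p-values were adjusted by Benjamini-Hochberg over all tested genes, and an adjusted p under 0.05 counted as a call. The biological coefficient of variation was 12.9%. CPM used the normalized library size, and log2 CPM a prior count of 2. Exonic lengths, positions and overlaps came from GENCODE M21 on GRCm38. Exons of several members overlap genes on the opposite strand, and exons of Hacl1, Crot and Gnpat overlap genes on the same strand. Intervals cover 95%. The steps were tested on simulated data.

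The members and lists were chosen with earlier results of these data known, so lists are described by counts and medians without a test. Members called in at least 2 comparisons, or first or last in fold change, are given in every library, and other members by their range. Of other lists only the called genes with the largest rise or fall are named, besides Pparg, Ppara and Adipoq, and Dlk1, a marker named after its values were seen because nearly all its counts are 0. Alternatives were RLE factors, library totals, no filter, at least 10 counts in every library, DESeq2 1.42.0, fits of 2 genotypes, a replicate block and leaving out each library. Some genes of the pathway are not reported here, and targeting signals in the proteins were not analysed here.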

Additional observations from a re-analysis of the deposited data

Results flagged for a closer look

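In 7 of the 108 groups of 4 libraries formed by the 36 genes and 3 genotypes, the highest or lowest library stood apart from the other 3, its gap divided by the range of the group being above Dixon's 95% critical value. Chance alone would give about 1 in 20 groups. Acox2 in TD replicate 1 was at 0.227 CPM, with the other TD libraries at 0.469 to 0.485 CPM. Acox3 in TD replicate 3 was at 60.2 CPM, above 55.1 to 55.9 CPM in the others, and in WT replicate 3 at 64.4 CPM, below 73.4 to 74.5 CPM. In TA replicate 4, Agps was at 39.2 CPM, below 47.6 to 48.2 CPM, and Pex13 at 87.2 CPM, below 107 to 109 CPM. Pex10 in TA replicate 3 was at 8.63 CPM, below 10.5 to 10.8 CPM. Pex26 in WT replicate 2 was at 26.3 CPM, above 20.3 to 21.2 CPM.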

How the results depend on the processing

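The number of the 36 genes called in TD against WT stayed between 23 and 27 under the alternatives other than leaving out a library, and ran from 19 to 28 when each library was left out in turn. In TD against TA the members called ran from 13 to 23 without a library, and all genes called from 1422 when TA replicate 2 was left out to 3526 when TA replicate 3 was, where 2524 were called with all 12. Without TD replicate 3 and without TD replicate 4 these were 1586 and 1432. In TA against WT 3 members were called with at least 10 counts in every library, a filter that leaves Acox2 and Acoxl untested, and 2 to 8 without a library. The cause of these shifts was not tested. Besides those given with the results, calls gained by leaving out a library were Pex10 (without WT replicate 3 or TA replicate 3) and Pex11g (without TA replicate 4) in TD against WT, Phyh (without TA replicate 2) in TA against WT, and Pex6, Pex7 (both without TA replicate 3) and Pex13 (without TA replicate 4) in TD against TA. Pex11g also passed in TD against WT without a filter and in the fit of TD and WT alone (adjusted p = 0.0202 and 0.0413). With DESeq2, 27 members were lower in TD than in WT, 4 were lower and 1 higher in TA than in WT, and 20 were lower in TD than in TA.

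Without a library the median log2 fold changes of the enzymes, carriers and membrane proteins were -0.42 to -0.36 (TD against WT), -0.041 to 0.073 (TA against WT) and -0.45 to -0.30 (TD against TA). Those of the peroxins were -0.37 to -0.28, -0.17 to -0.032 and -0.30 to -0.22, in the same order.

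The replicate numbers showed no clear pairing of the libraries, and the labels do not say whether same-numbered libraries belong together. The deviations of 12 same-numbered pairs from their genotype means correlated at -0.24 to 0.20, and 2 of the 12 exceeded 0.1. With the replicate block, 25 members were called for TD against WT, 4 for TA against WT and 20 for TD against TA. Calls lost under the block were those of Pex5 (TD against WT, adjusted p = 0.0516), Acoxl (TA against WT, adjusted p = 0.0525) and Pex2 (TD against TA, adjusted p = 0.0505). Under the block, Acaa1a, Pecr and Far1 in TA against WT turned to -0.00019, -0.0069 and -0.0046 on the log2 scale.

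With library totals alone Acaa1a and Pecr in TA against WT turned to -0.0017 and -0.0071, and Acaa1b and Pex5 in TD against TA to 0.0047 and 0.026. Without a filter Acaa1a, Pecr and Far1 in TA against WT turned to -0.0024, -0.0077 and -0.00083. None of these passed the test in either setting. Leaving out a library turned the sign of some values that passed no test. In TD against WT these were Agps (-0.016 to 0.044), and in TD against TA Agps (-0.024 to 0.067) and Acaa1b (-0.21 to 0.0017). In TA against WT they were Acox3 (-0.029 to 0.12), Acaa1a (-0.074 to 0.11), Eci2 (-0.064 to 0.071), Decr2 (-0.077 to 0.013), Pecr (-0.16 to 0.15), Abcd2 (-0.090 to 0.083), Agps (-0.051 to 0.036), Gnpat (-0.041 to 0.12), Far1 (-0.11 to 0.13), Pex2 (-0.093 to 0.029) and Pex11g (-0.26 to 0.020). Depth limits Acox2 and Acoxl, whose lowest libraries held 4 counts and 1 count.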
